A study of Mus musculus with 24 samples.

Results

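The proteasome is the protease that degrades ubiquitin-tagged proteins. Genes of its subunits, activators, inhibitor and assembly chaperones carry symbols that begin with Psma to Psmg. The members described here are all probes whose symbol is Psm, a letter from a to g and a digit. They were 65 of the 25697 probes on the array and stood for 44 of 18138 genes. Of these, 63 probes and 43 genes were detected on enough arrays to be tested, out of 10798 genes tested in all. The probe of Psma3, an alpha subunit of the core ring, was detected on 1 of 24 arrays and was not tested. The rule also takes in Psmc3ip, which is no proteasome gene. It encodes a cofactor of the recombinases that pair chromosomes in meiosis, and it is given apart where it matters. Psma8, Psmb11, Psmd3, Psmg1 and Psmg4 were not analysed here.

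The samples were small intestinal organoids, which are cultures of gut epithelium grown from mouse tissue, here from C57BL/6 mice and kept in medium that held Noggin, R-spondin and EGF at 50 ng/ml. Irradiated groups were exposed to gamma rays at a dose of 6 Gy on day 3 after reseeding, and control groups had a dose of 0 Gy. RNA was taken from irradiated and control organoids at time points of 24, 48 and 96 h, which gave 6 groups of 4 samples, each with its own Illumina mouse BeadChip array. No label states that replicates are separate cultures or animals, so the p-values cover only the spread among the samples given, and that spread may be technical.

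In the working enzyme, 4 stacked rings form a barrel called the core particle. The outer rings consist of alpha subunits that gate the entrance, and the inner rings consist of beta subunits, of which Psmb5, Psmb6 and Psmb7 carry the active sites. A regulatory particle sits on the end of the barrel. Its base holds the ATPases Psmc1 to Psmc6, which unfold the substrate, and its other subunits bind ubiquitin chains and remove them. Cells exposed to interferon replace the active beta subunits with Psmb8, Psmb9 and Psmb10, the subunits of the immunoproteasome, which cuts peptides for display on MHC class I. They also raise Psme1 and Psme2, which form the PA28 activator. When the proteasome is inhibited, mammalian cells raise most of its genes together through Nfe2l1, which binds antioxidant response elements in their promoters. The intestinal epithelium renews itself quickly and expresses the constitutive subunits at high levels.

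Transcript levels are given as log2 of the background-corrected, quantile-normalized probe signal, and an irradiation effect is the difference of group means on that scale, irradiated minus control. Levels of different probes are not compared with each other. A gene was called where the adjusted p from limma, over all genes tested, was under 0.05. The number of probes detected per array ranged from 9738 to 14751 and was lower on irradiated arrays at 24 h, with 9738 to 12941 probes against 12535 to 13551 on controls. Each time point had 1 chip of 8 arrays, with controls in the first positions and irradiated samples in the last, so chip and time cannot be told apart, nor can position and irradiation. All 11 epithelial marker genes with a probe were detected on all 24 arrays. Of 13 immune cell markers, 8 were detected on no array, Ptprc (CD45), Cd3e, Cd68 and Itgam among them. In whole-culture RNA, fewer cells of a type and less RNA per cell cannot be told apart.

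At 24 h, 3 proteasome genes fell in irradiated organoids and none rose. The genes that fell were Psmc6, an ATPase of the regulatory particle, and Psmg2 and Psmg3, which encode chaperones that assemble the alpha ring. Each was lower by 1.28 to 1.36 times. The background share was 12.5% of all genes tested lower and 11.1% higher, so the 3 lower calls among 43 genes are a smaller share than the 12.5% over the whole array. At an unadjusted p under 0.05, 8 members were lower and 0 were higher, where 19.6% of all genes tested were lower and 15.7% higher, so the 8 of 43 lower are near the share of the whole array.

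Psmc6 read 9.84, 9.77, 9.71 and 9.58 in irradiated organoids at 24 h, against 10.02, 10.09, 10.13 and 10.09 in controls. All 4 irradiated samples lay below all 4 controls. The difference was -0.36 ± 0.10 (SE; adjusted p = 0.0156 in limma). At 48 h the irradiated values, 10.11, 10.11, 9.96 and 9.85, also lay below the control values, 10.20, 10.25, 10.36 and 10.25, but the difference of -0.26 missed the threshold (adjusted p = 0.105 in limma). At 96 h the groups overlapped and the difference was -0.24 (adjusted p = 0.238 in limma). The 24 h call rested on the arrays kept, since without irradiated replicate 4 the difference was -0.31 (adjusted p = 0.0586 in limma). Without the 5 arrays with the fewest detected probes it was -0.28 (adjusted p = 0.199 in limma), with detected probes per array as a covariate -0.33 (adjusted p = 0.0697 in limma) and with cyclic loess scaling -0.30 (adjusted p = 0.0578 in limma).

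Psmg2 is the partner of Psmg1 in the chaperone pair that starts assembly of the alpha ring. It read 7.84, 7.90, 7.94 and 7.89 in irradiated organoids at 24 h, against 8.26, 8.53, 8.30 and 8.26 in controls. The irradiated values lay close together and below every control. The difference was -0.45 ± 0.11 (SE; adjusted p = 0.00392 in limma). The other detected Psmg2 probe read 7.18, 7.13, 6.93 and 6.67 in irradiated organoids against 7.57, 7.64, 7.59 and 7.65 in controls, and it also fell, by 0.64 in a fit over all probes (adjusted p = 0.000241 in limma). At 48 h the brighter probe read 8.07, 7.88, 7.81 and 8.06 in irradiated organoids against 8.08, 8.19, 8.28 and 8.35 in controls. These groups still did not overlap, with a difference of -0.27 (adjusted p = 0.106 in limma). At 96 h the order was the opposite, with 8.48, 8.45, 8.44 and 8.42 in irradiated organoids against 8.09, 7.89, 8.46 and 8.04 in controls, and only control replicate 3 reached the irradiated range. That difference of 0.32 missed the threshold (adjusted p = 0.0912 in limma), and without control 96 h replicate 3 it was 0.44 (adjusted p = 0.00974 in limma).

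Psmg3 encodes a chaperone that acts on the alpha ring in a pair with Psmg4. Its irradiated values at 24 h were 7.36, 7.26, 7.07 and 7.56, against 7.71, 7.61, 7.82 and 7.80 in controls. The groups did not overlap, although the highest irradiated sample came close to the lowest control. The difference was -0.43 ± 0.12 (SE; adjusted p = 0.0103 in limma). Without irradiated 24 h replicate 3, the array with the fewest detected probes, it was -0.34 (adjusted p = 0.0512 in limma). With detected probes per array as a covariate it was -0.28 (adjusted p = 0.114 in limma). At 96 h Psmg3 read 7.98, 7.87, 7.56 and 7.73 in irradiated organoids against 7.59, 7.48, 7.60 and 7.19 in controls, and the groups overlapped with a difference of 0.32 (adjusted p = 0.134 in limma).

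**Figure D1:**
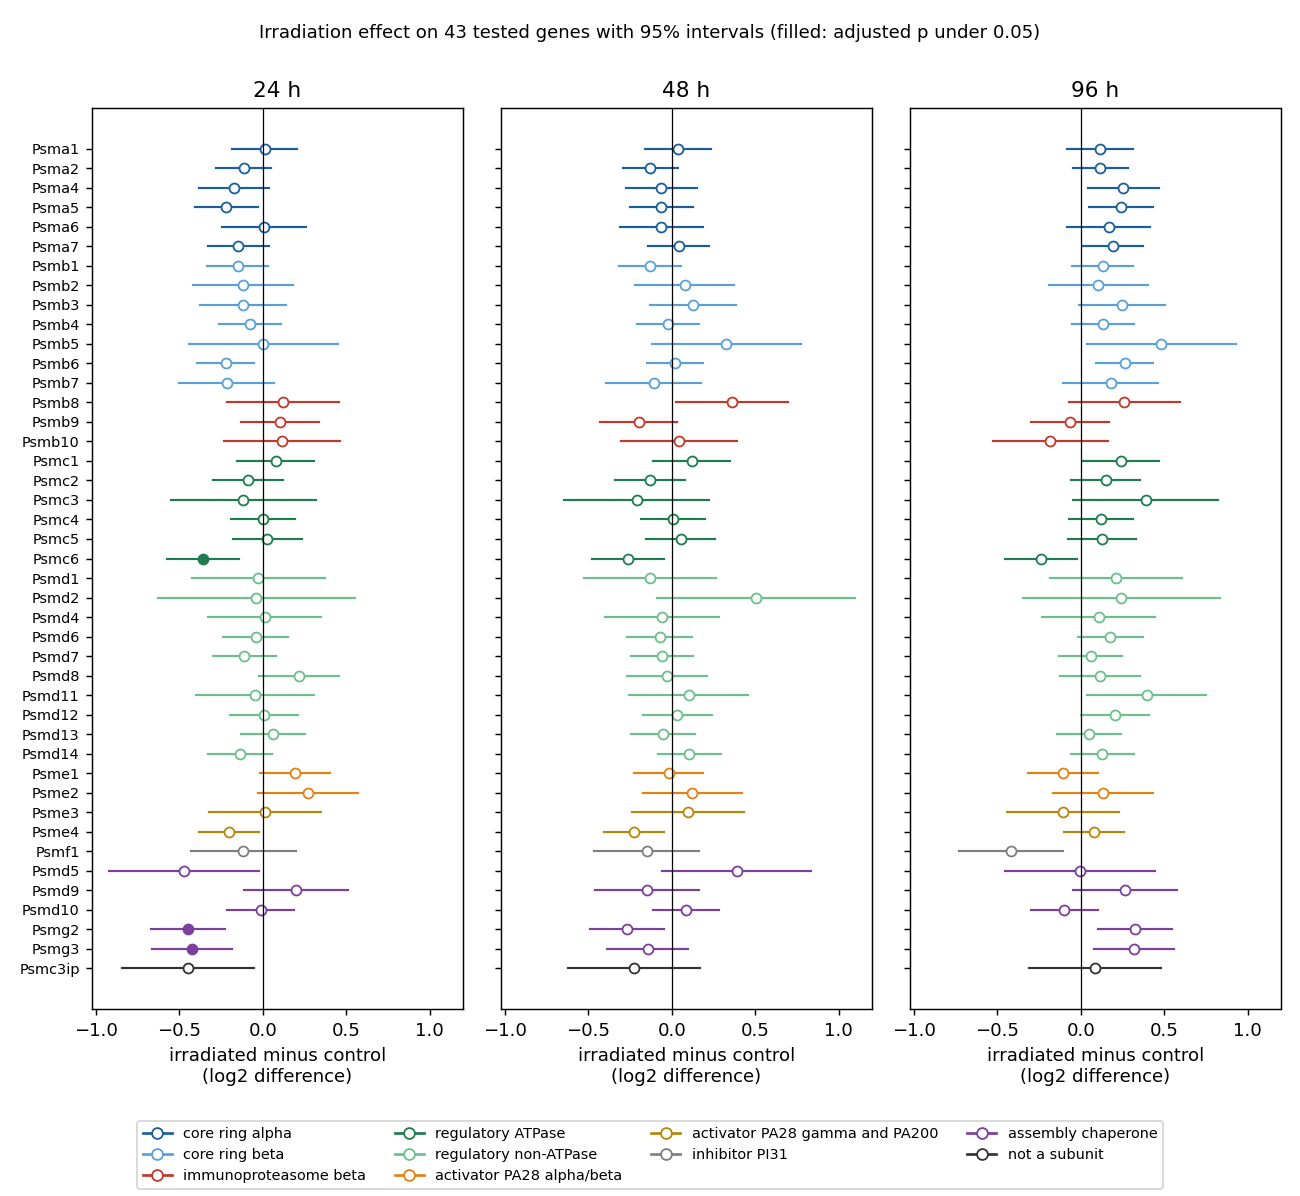
Irradiation effect (log2 difference, irradiated minus control) of the 43 tested genes at 24, 48 and 96 h, ordered and coloured by role. Points are effects, lines 95% intervals, and filled points are genes called at an adjusted p under 0.05, which are Psmc6, Psmg2 and Psmg3 at 24 h. At 96 h all 13 core subunits sit above 0, against 1 of 13 with median centring, where the median of all genes is -0.21. Taking the mean of a gene's probes, 12 of 13 do.

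The sequence before the start of these genes is shown for the 5 members that hold the letters of an antioxidant response element, TGACNNNGC on either strand, the element bound by Nfe2l1 and Nfe2l2. The 250 bases before each start were taken from RefSeq on mouse build GRCm38.p6 and were found for 38 of the 44 genes, with 41 promoters. Each line below gives 60 bases of the promoter in the direction of the gene, with the matching letters in capitals. Psmc6, which fell at 24 h, and Psmb6 and Psmb5 of the core are among them, together with Psmd12, a subunit of the regulatory particle, and Psmd9.
Psmb5, chr14:54618009-54618068, minus strand: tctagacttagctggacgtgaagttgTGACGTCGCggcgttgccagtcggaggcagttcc
Psmb6, chr11:70525297-70525356, plus strand: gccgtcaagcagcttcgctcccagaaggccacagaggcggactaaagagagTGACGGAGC
Psmc6, chr14:45329574-45329633, plus strand: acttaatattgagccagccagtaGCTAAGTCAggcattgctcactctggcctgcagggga
Psmd12, chr11:107479278-107479337, plus strand: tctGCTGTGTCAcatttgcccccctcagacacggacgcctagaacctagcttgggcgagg
Psmd9, chr5:123228130-123228189, plus strand: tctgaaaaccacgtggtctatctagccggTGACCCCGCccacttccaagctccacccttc

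These letters were in 5 of 41 member promoters, 12.2%, and in 10.2% of all 32851 promoters of the same length. The effects of the 5 genes at 24 h were 0.0038 for Psmb5, -0.22 for Psmb6, -0.36 for Psmc6, 0.0074 for Psmd12 and 0.20 for Psmd9, and at 96 h 0.48, 0.26, -0.24, 0.21 and 0.27. Psmc6 is the one with a negative effect at both times. The letters of an interferon-stimulated response element, GAAA, any 2 bases and GAAA, were in 3 of 41 member promoters (7.32%, against 2.98% of all), those of Psmb3, Psmd4 and Psmd9, and not in the promoter windows of Psmb8, Psmb9 or Psmb10. A CCAAT box was in 14 (34.1%, against 33.8%) and a GC box, GGGCGG, in 22 (53.7%, against 32.7%). All 4 motifs were searched on both strands, and they can overlap each other. A match is only a match of letters.

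The core particle had no called gene at any time. At 24 h, 10 of its 13 tested genes had a negative effect (8 under cyclic loess, 13 with median centring), and the median effect was -0.12, against -0.04 over all genes tested. At 48 h, 6 of 13 effects were positive and the median was -0.02. At 96 h, 13 of 13 effects were positive, between 0.11 and 0.48 with a median of 0.18, while 49.4% of all genes tested had a positive effect and their median was near 0. Of these 13, 5 passed an unadjusted p of 0.05 (background 6.97% of all genes higher), and none passed the adjusted threshold. For 3 of the 13, all irradiated samples lay above all controls (background 2.94%). The 96 h controls were uneven, and not in the same order for each gene. Psmb7 read 10.15, 9.99, 9.60 and 9.58 in control replicates 1 to 4, while Psmb3 read 9.75, 9.84, 10.21 and 10.13. Taking the mean of a gene's probes in place of the brightest probe, 12 of 13 core effects were positive at 96 h. With each array centred on its median in place of quantile normalization, the median effect of all genes at 96 h was -0.21, so that 1 of 13 core effects was positive, yet 13 of 13 lay above the median of all genes.

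Psmb6, which carries the caspase-like active site, was the core gene nearest to a call. At 24 h it read 9.93, 9.85, 9.86 and 9.89 in irradiated organoids against 10.08, 10.08, 10.06 and 10.20 in controls. All irradiated samples were lower, and the difference of -0.22 ± 0.08 (SE) had an adjusted p of 0.0508 in limma. At 96 h it read 10.01, 10.09, 10.02 and 9.98 in irradiated organoids against 9.96, 9.79, 9.63 and 9.66 in controls. Here all irradiated samples were higher, and the difference of 0.26 had an adjusted p of 0.066 in limma. Both values lie close enough to the threshold to pass it under some settings. Under 10 of 17 alternatives Psmb6 was called lower at 24 h, and under 4 of 17 it was called higher at 96 h.

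Psma5, an alpha subunit, had effects of the same signs. At 24 h its irradiated values were 11.14, 11.01, 11.06 and 11.10, against 11.25, 11.30, 11.30 and 11.34 in controls. At 96 h they were 11.29, 11.18, 11.15 and 11.14, against 11.14, 11.06, 10.76 and 10.83 in controls. The groups did not overlap at either time, with irradiated samples lower at 24 h and higher at 96 h, and neither difference was called (-0.22 and 0.24; adjusted p = 0.0858 and 0.151 in limma). Psmb5, the chymotrypsin-like subunit, had the largest positive effect at 96 h, 0.48 (95% interval 0.04 to 0.93; adjusted p = 0.244 in limma). Its control values there, 9.07, 9.24, 8.25 and 8.39, spanned a wider range than the irradiated values, 9.13, 8.80, 9.51 and 9.44, and the groups overlapped. For Psmb7, the trypsin-like subunit, the effects were -0.22, -0.11 and 0.18 at 24, 48 and 96 h, all with overlapping groups.

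The 16 tested subunits of the regulatory particle, 6 ATPases and 10 others, included Psmc6 and no other call. Their median effect was -0.03 at 24 h, -0.04 at 48 h and 0.14 at 96 h. At 96 h, 15 of 16 effects were positive, with Psmc6 the exception, while with median centring 2 were positive and 13 lay above the median of all genes. The largest of them, Psmd11, a scaffold subunit, had an effect of 0.39 with overlapping groups (adjusted p = 0.228 in limma). Groups overlapped at 96 h for all 16 subunits of the regulatory particle. Control replicates 1 to 4 were uneven here too, at 10.18, 9.93, 9.12 and 9.15 for Psmc3 and 7.36, 8.51, 8.21 and 8.73 for Psmd2. Psmd8, another subunit of that particle, was the only one of the 43 genes whose irradiated samples at 24 h all lay above the controls by the brightest probe. It read 10.15, 10.16, 10.13 and 10.31 in irradiated organoids against 9.81, 10.09, 10.03 and 9.98 in controls, with a difference of 0.22 (adjusted p = 0.19 in limma).

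Over all 43 tested genes, the median effect was -0.05 at 24 h, -0.03 at 48 h and 0.13 at 96 h, beside -0.04, -0.04 and -0.0036 over all genes tested. At 48 h no member was called higher or lower (background 7.27% and 6.22%), and at an unadjusted p under 0.05, 1 was higher and 3 were lower (background 11.6% and 14.6%). At 96 h again no member was called higher or lower (background 1.71% and 3.39%), and at that unadjusted p 9 were higher and 2 were lower (background 6.97% and 10.5%). At 96 h 35 of 43 effects were positive, against 7 with median centring, where 33 of 43 lay above the median of all genes. Groups that did not overlap numbered 8 lower and 1 higher at 24 h (background 16.1% and 12.7%), 4 lower and 0 higher at 48 h (11% and 9.44%), and 0 lower and 3 higher at 96 h (4.6% and 2.94%).

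The 24 h values depended on how arrays were brought to a common scale. Centring each array on its median moved the median effect of all genes at 24 h to -0.44, and the share of calls that were higher to 8.62%, from 47.1%. Under that scaling 29 members were called lower, where 45.6% of all genes tested were, and the members' median lay 0.10 below that of all genes. Under cyclic loess 68.5% of the calls at 24 h were higher, 24 of 43 members had a positive effect, and their median was 0.026. The members' median minus that of all genes at 96 h was 0.14 with quantile normalization, 0.08 with median centring and 0.12 with cyclic loess.

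**Figure D2:**
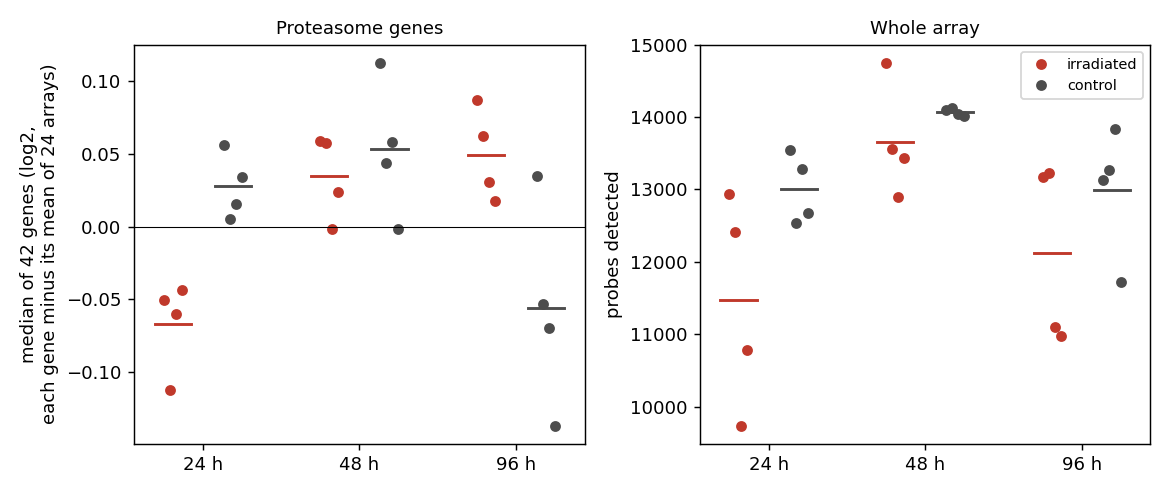
Left, the median over 42 proteasome genes on each array, in log2 units after subtracting each gene's mean over the 24 arrays. Right, the number of probes detected on each array. Points are arrays and bars group means. At 24 h the irradiated arrays lie between -0.11 and -0.04 and the controls between 0.01 and 0.06.

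Taking the median over the 42 genes other than Psmc3ip on each array, irradiated organoids at 24 h lay at -0.05, -0.11, -0.06 and -0.04, against 0.06, 0.01, 0.02 and 0.03 in controls. At 96 h they lay at 0.09, 0.06, 0.03 and 0.02, against 0.04, -0.05, -0.07 and -0.14 in controls. The groups were apart at 24 h, while at 96 h control replicate 1 lay within the irradiated range. These medians are a description of the gene set, and no test was made on them. Their deviations from the group mean correlated at 0.20 with those of the number of detected probes over the 24 arrays.

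Whether the irradiation effect itself differed between times was tested as a contrast of effects. From 24 to 96 h, 4 members had an effect that became more positive and 0 one that became more negative (background 4.5% and 6.9%). The change was 0.77 ± 0.15 for Psmg2 (SE; adjusted p = 0.00179 in limma), from -0.45 to 0.32. It was 0.74 ± 0.16 for Psmg3 (adjusted p = 0.00452 in limma), 0.49 ± 0.12 for Psmb6 (adjusted p = 0.00762 in limma) and 0.46 ± 0.13 for Psma5 (adjusted p = 0.0222 in limma). The called genes were thus both tested chaperones of the alpha ring, an alpha subunit and a beta subunit. Of the 13 core subunits, 13 of 13 changes had a positive sign, with a median of 0.34, and 13 of 13 did so with median centring and with cyclic loess. The 96 h mean minus the 24 h mean of Psma5 was -0.35 in controls and 0.11 in irradiated organoids, and that of Psmb6 -0.34 and 0.15. For Psmg2 these values were -0.22 and 0.55, and for Psmg3 -0.27 and 0.47. Time and chip cannot be told apart in these values, and they were not tested. From 48 to 96 h Psmg2 alone was called, at 0.59 ± 0.15 (adjusted p = 0.0302 in limma; background 0.806% more positive and 2.69% more negative), and 35 of 43 changes were positive (32 with median centring). From 24 to 48 h no member was called (background 0.25% and 0.741%), with 2 more positive and 0 more negative at an unadjusted p under 0.05 (background 5.15% and 5.32%). With median centring 2 of the 4 calls from 24 to 96 h were lost, those of Psmb6 (0.69, adjusted p = 0.0996 in limma) and Psma5 (0.53, adjusted p = 0.22 in limma), and under cyclic loess that of Psma5 (adjusted p = 0.0595 in limma). Without the 5 arrays with the fewest detected probes, 2 members were called from 24 to 96 h, and the changes were 0.47 for Psmb6 (adjusted p = 0.108 in limma) and 0.47 for Psma5 (adjusted p = 0.144 in limma). The call of Psmg2 from 48 to 96 h was lost when any of 8 single arrays was left out, with adjusted p up to 0.0739 in limma. These single arrays were control replicates 3 and 4 and irradiated replicates 2 and 3 at 48 h, and control replicates 2 and 4 and irradiated replicates 1 and 3 at 96 h. It was also lost with median centring (adjusted p = 0.482 in limma), without the 5 arrays with the fewest detected probes (adjusted p = 0.152 in limma) and with only the arrays of those times (adjusted p = 0.0947 in limma).

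**Figure D3:**
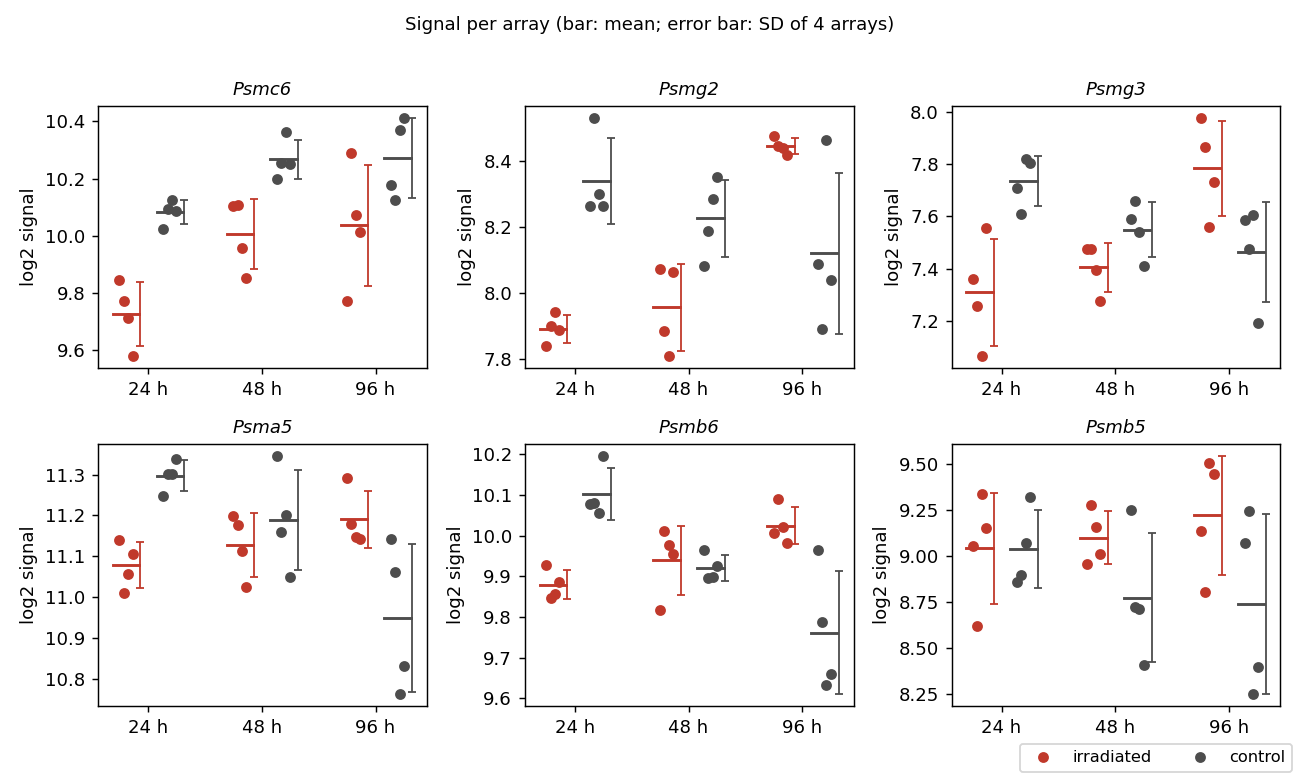
Signal (log2) of Psmc6, Psmg2, Psmg3, Psma5, Psmb6 and Psmb5 on each of the 24 arrays, irradiated left of control at each time. Points are arrays, thick bars group means and thin bars the SD of 4 arrays. Psmg2 lies between 7.84 and 7.94 in irradiated organoids at 24 h and between 8.42 and 8.48 at 96 h.

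No gene of the immunoproteasome was called at any time. Psmb8, the interferon-induced counterpart of Psmb5, was detected on 4 of 24 arrays, 2 irradiated and 2 control arrays at 48 h. At 24 and 96 h it was not well above background on any array, so no fold is given there. At 48 h it read 5.29, 4.97, 5.11 and 5.78 in irradiated organoids against 5.12, 4.58, 5.08 and 4.92 in controls. The groups overlapped, and the difference of 0.36 was not called (adjusted p = 0.154 in limma).

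Psmb9, the counterpart of Psmb6, was detected on all 24 arrays. It read 7.37, 7.52, 7.57 and 7.54 in irradiated organoids at 24 h against 7.40, 7.54, 7.38 and 7.27 in controls, a difference of 0.10 (adjusted p = 0.54 in limma). At 48 h it read 7.23, 7.13, 7.17 and 7.11 in irradiated organoids against 7.40, 7.22, 7.45 and 7.36 in controls, a difference of -0.20 (adjusted p = 0.273 in limma). The groups overlapped at both times, at 48 h by 1 sample on each side. At 96 h the difference was -0.06, with irradiated values from 6.60 to 7.08 and control values from 6.58 to 7.09. With median centring the 24 h difference of Psmb9 turned to -0.47, under which the median of all genes was -0.44.

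Psmb10, the counterpart of Psmb7, read 10.46, 10.63, 10.42 and 10.44 in irradiated organoids at 24 h, against 10.26, 10.75, 10.26 and 10.22 in controls. Control replicate 2 stood above every other sample, and the other 3 controls lay below every irradiated sample. The difference was 0.12 at 24 h, 0.04 at 48 h and -0.18 at 96 h, with an adjusted p of 0.632 in limma or more at each time. In the PA28 activator, Psme1 read 11.03, 10.84, 11.00 and 10.90 in irradiated organoids at 24 h against 10.81, 10.57, 10.73 and 10.88 in controls. Its difference of 0.19 was not called (adjusted p = 0.176 in limma), and under cyclic loess it was called at 0.31 (adjusted p = 0.031 in limma). Under that scaling 68.5% of all calls at 24 h were higher. Over 17 alternatives the difference of Psme1 ranged from -0.20 to 0.31. The other Psme1 probe ranged from 10.28 to 10.43 in irradiated organoids and from 10.04 to 10.16 in controls, so its groups did not overlap, and its difference of 0.25 was not called either (adjusted p = 0.123 in limma over all probes). Psme2 read 6.64, 6.58, 7.17 and 6.83 in irradiated organoids at 24 h, against 6.57, 6.61, 6.45 and 6.50 in controls, with irradiated replicate 3 the highest and a difference of 0.27 (adjusted p = 0.183 in limma).

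Because each immunoproteasome subunit takes the place of a constitutive one, the per-array log2 difference of each pair was compared between irradiated and control organoids by exact permutation of the labels (two-sided, 70 splits), which cannot give a p under 0.0286. With 9 comparisons, a single one at that smallest p adjusts to 0.257, and at least 6 would have to reach it for any to pass 0.05. None passed, and with so few arrays that outcome says little about the pairs. Psmb9 minus Psmb6 was 0.33 higher in irradiated organoids at 24 h (exact permutation p = 0.0571, adjusted p = 0.257). It was 0.22 lower at 48 h (difference -0.22, exact permutation p = 0.0571, adjusted p = 0.257) and 0.33 lower at 96 h (difference -0.33, exact permutation p = 0.0857, adjusted p = 0.257). The sign therefore differed between 24 h and the later times, and no change of this difference between times was tested. Psmb10 minus Psmb7 differed by 0.33, 0.15 and -0.36 at 24, 48 and 96 h, with an exact permutation p of 0.171 or more at each time. Psmb8 minus Psmb5 differed by 0.03 at 48 h (exact permutation p = 0.886), and at 24 and 96 h, where Psmb8 was not well above background on any array, no difference is given.

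**Figure D4:**
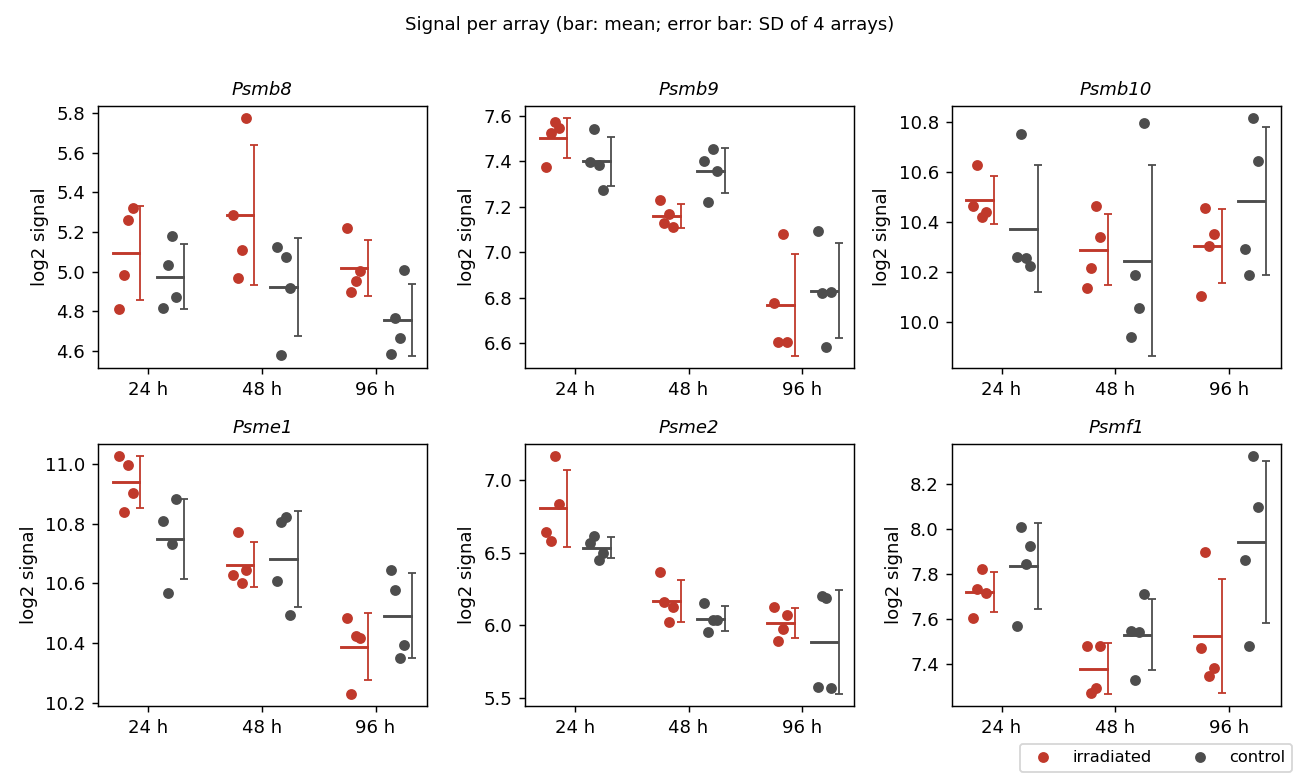
Signal (log2) of Psmb8, Psmb9, Psmb10, Psme1, Psme2 and Psmf1 on each of the 24 arrays, irradiated left of control at each time. Points are arrays, thick bars group means and thin bars the SD of 4 arrays. Psmb9 and Psme2 have their lowest means at 96 h in both groups, and the irradiated mean of Psmf1 at 96 h is 7.53 against 7.94 in controls.

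Psmb9 and Psme2 had their lowest means at 96 h in irradiated and in control organoids. The 96 h mean of Psmb9 lay below its 24 h mean by 0.74 in irradiated organoids (a difference of -0.74) and by 0.57 in controls (-0.57). For Psme2 these differences were -0.79 in irradiated organoids and -0.65 in controls, and for Psme1 -0.55 and -0.26. Each time point was on its own chip, so time and chip cannot be told apart here, and no test was made. Across all 43 genes, the 96 h mean lay above the 24 h mean for 33 in irradiated organoids, with a median difference of 0.17, and for 16 in controls, with a median of -0.09. The medians over all genes tested were 0.05 in irradiated organoids and 0.0041 in controls.

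Among the remaining members, Psme3, the nuclear PA28 gamma, had effects of 0.01, 0.10 and -0.10 at the 3 times. With median centring its 24 h effect was -0.53, and the median of all genes -0.44. Psme4, which encodes the activator PA200, read 9.08, 8.96, 8.94 and 9.15 in irradiated organoids at 24 h against 9.29, 9.18, 9.19 and 9.27 in controls. At 48 h it read 9.18, 9.09, 9.15 and 8.95 in irradiated organoids against 9.29, 9.29, 9.31 and 9.38 in controls. Irradiated samples lay below all controls at both times, with differences of -0.20 and -0.23 that were not called (adjusted p = 0.0951 and 0.0892 in limma). The other Psme4 probe fell at 24 h, with a difference of -0.60 in the fit over all probes (adjusted p = 0.0101 in limma). Its groups overlapped at 48 h. There it read 8.17, 7.83, 8.14 and 8.07 in irradiated organoids against 8.04, 8.18, 7.94 and 7.91 in controls.

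Psmf1 encodes PI31, named as an inhibitor of the proteasome in the test tube. It read 7.47, 7.90, 7.35 and 7.39 in irradiated organoids at 96 h, against 7.86, 7.48, 8.32 and 8.10 in controls. The ranges overlapped, with irradiated replicate 2 high and control replicate 2 low, and the difference of -0.42 was not called (adjusted p = 0.13 in limma). Leaving out irradiated replicate 2 gave -0.54 (adjusted p = 0.0372 in limma), and leaving out control replicate 2 gave -0.57 (adjusted p = 0.0157 in limma). Over all single arrays left out the difference ranged from -0.57 to -0.29, with adjusted p up to 0.41 in limma. The value of -0.29 was without control replicate 3, which read 8.32. The chaperones of the regulatory base, Psmd5, Psmd9 and Psmd10, were not called at any time by their brightest probe. Psmd5 was not well above background on any irradiated array at 24 h and was on 3 of 4 controls, and the bound on its fold was under 1, so no fold is given. For Psmd9 the brightest probe differed by 0.20 at 24 h, whereas its dimmer probe fell (adjusted p = 0.0154 in limma). That probe was detected on 1 of 4 irradiated arrays and 4 of 4 controls at 24 h, so its measured difference of -0.63 rests mostly on irradiated signal at background. Psmc3ip, which is no proteasome gene, read 6.16, 6.83, 5.71 and 6.88 in irradiated organoids at 24 h against 6.84, 6.76, 6.91 and 6.86 in controls. There 2 irradiated samples were low, and the difference of -0.45 was not called (adjusted p = 0.0939 in limma). Without irradiated replicate 2 it was -0.59 (adjusted p = 0.0304 in limma), and without irradiated replicate 4 it was -0.61 (adjusted p = 0.027 in limma). Over all single arrays left out it ranged from -0.61 to -0.22, with adjusted p up to 0.398 in limma. The value of -0.22 was without irradiated replicate 3, which read 5.71. Psmc3ip was detected on 3 of 4 irradiated arrays at 24 h.

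Of 18 tested partners of the proteasome, 1 rose and 1 fell at 24 h, 2 rose at 48 h and none was called at 96 h. Over all genes tested, 11.1% rose and 12.5% fell at 24 h, and 7.27% rose at 48 h. Zfand2a, which encodes AIRAP, a zinc finger protein that binds the regulatory particle under arsenite stress, averaged 7.47 ± 0.18 in irradiated organoids at 24 h and 6.71 ± 0.15 in controls (SD, n = 4 each), and rose by 0.75 (adjusted p = 0.000338 in limma). It also rose at 48 h, by 0.55 (adjusted p = 0.00891 in limma). Nfe2l2, the NRF2 transcription factor, averaged 10.12 ± 0.14 in irradiated organoids at 48 h and 9.42 ± 0.28 in controls (SD, n = 4 each), and rose by 0.71 (adjusted p = 0.00589 in limma). AI314180, now Ecpas, encodes a scaffold that holds core and regulatory particle together. It fell at 24 h, with a difference of -0.29 (adjusted p = 0.0317 in limma), a call lost under cyclic loess (adjusted p = 0.116 in limma) and without the 5 arrays with the fewest detected probes (adjusted p = 0.0608 in limma). It was also lost without control replicate 1 or 3 or irradiated replicate 2 or 4 of that time, with adjusted p up to 0.117 in limma. With median centring the rises of Zfand2a and Nfe2l2 were not called, at adjusted p from 0.163 to 0.431 in limma.

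Of 17 tested genes of ubiquitin, its conjugating enzymes and the VCP unfoldase, 3 fell at 24 h, none was called at 48 h and 1 rose at 96 h. Over all genes tested, 12.5% fell at 24 h and 1.71% rose at 96 h. Those that fell were Uba6, a ubiquitin-activating enzyme (-0.44, adjusted p = 0.00509 in limma), Ube2c, which feeds the anaphase-promoting complex in mitosis (-0.48, adjusted p = 0.033 in limma), and Ube2d1, a conjugating enzyme (-0.27, adjusted p = 0.036 in limma). All 3 calls were lost under cyclic loess, with adjusted p from 0.0967 to 0.14 in limma, and without the 5 arrays with the fewest detected probes, with adjusted p from 0.0588 to 0.185 in limma. Nsfl1c, the VCP cofactor p47, rose by 0.40 at 96 h (adjusted p = 0.0385 in limma), and without the 5 arrays with the fewest detected probes it differed by 0.25 (adjusted p = 0.623 in limma). With median centring it differed by 0.14 (adjusted p = 0.671 in limma) and the call of Uba6 was lost (adjusted p = 0.168 in limma). Single arrays also decided these calls. That of Ube2c was lost without control replicate 1, 3 or 4 or irradiated replicate 1, 2 or 3 at 24 h, that of Ube2d1 without control replicate 1, 3 or 4 or irradiated replicate 2, 3 or 4 at 24 h, and that of Nsfl1c without control or irradiated replicate 1, 3 or 4 at 96 h, with adjusted p up to 0.147 in limma.

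Genes of antigen presentation and interferon signalling, the setting in which the immunoproteasome works, had 3 of 18 members called higher at 24 h, 3 called higher at 48 h and 1 called lower at 96 h, where the shares of all genes tested were 11.1%, 7.27% and 3.39%. B2m, the light chain of MHC class I, rose by 0.37 at 24 h (11.78 ± 0.05 in irradiated organoids and 11.41 ± 0.12 in controls; SD, n = 4 each; adjusted p = 0.00768 in limma) and by 0.32 at 48 h (adjusted p = 0.0279 in limma). H2-K1, a class I heavy chain, rose by 0.66 at 48 h (adjusted p = 0.0259 in limma). The interferon gamma receptor chain Ifngr2 rose by 0.42 at 24 h and 0.37 at 48 h (adjusted p = 0.0169 and 0.0475 in limma), and the other chain, Ifngr1, fell at 96 h with a difference of -0.45 (adjusted p = 0.0301 in limma). Irf1, a transcription factor induced by interferon, rose by 0.55 at 24 h (adjusted p = 0.00684 in limma). With the mean of its probes in place of the brightest probe the value was 0.032 (adjusted p = 0.9 in limma), and with median centring it was -0.032. With median centring none of the rises of B2m, H2-K1, Ifngr2 and Irf1 was called, at adjusted p from 0.18 to 0.915 in limma. Leaving out 1 array of the same time also ended several calls. That of B2m at 48 h was lost without control replicate 1 or 3 or irradiated replicate 3 or 4, that of H2-K1 without control replicate 2 or 4 or irradiated replicate 3 or 4, that of Ifngr2 at 24 h without control replicate 2, and that of Ifngr1 without control replicate 1, 2 or 4 or irradiated replicate 2, 3 or 4. That of Ifngr2 at 48 h was lost without any of 14 single arrays of the 24, with adjusted p up to 0.162 in limma: at 24 h control replicates 3 and 4 and all irradiated replicates, at 48 h control replicates 1, 2 and 3 and irradiated replicates 3 and 4, and at 96 h control replicate 3 and irradiated replicates 2 and 4. Beside this, the mean log2 signal over the 13 immune cell markers ranged from 4.67 to 4.85 on irradiated arrays at 24 h and from 4.76 to 4.83 on controls, with Ptprc detected on none. Of the 4 immune markers tested, Coro1a was called lower at 24 h and Laptm5 at 48 and 96 h. Of 12 markers of mesenchyme and endothelium, 9 were detected on no array, and Acta2 was detected on all 24. Of the 3 tested, Tek was called higher at 24 h, with a difference of 0.94 and overlapping groups (adjusted p = 0.0237 in limma), although it was detected on only 5 of the 24 arrays. Acta2, smooth muscle actin, was called higher at 48 h, at 0.87 with overlapping groups (adjusted p = 0.0259 in limma), and at 24 h its difference of 0.48 was not called, with irradiated samples above all controls. Of the 11 epithelial markers, 2 rose and 1 fell at 24 h, and Krt20, a keratin of differentiated villus cells, rose at all 3 times, by 1.35, 1.21 and 0.74, and the part of these markers in the results was not tested.

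**Figure D5:**
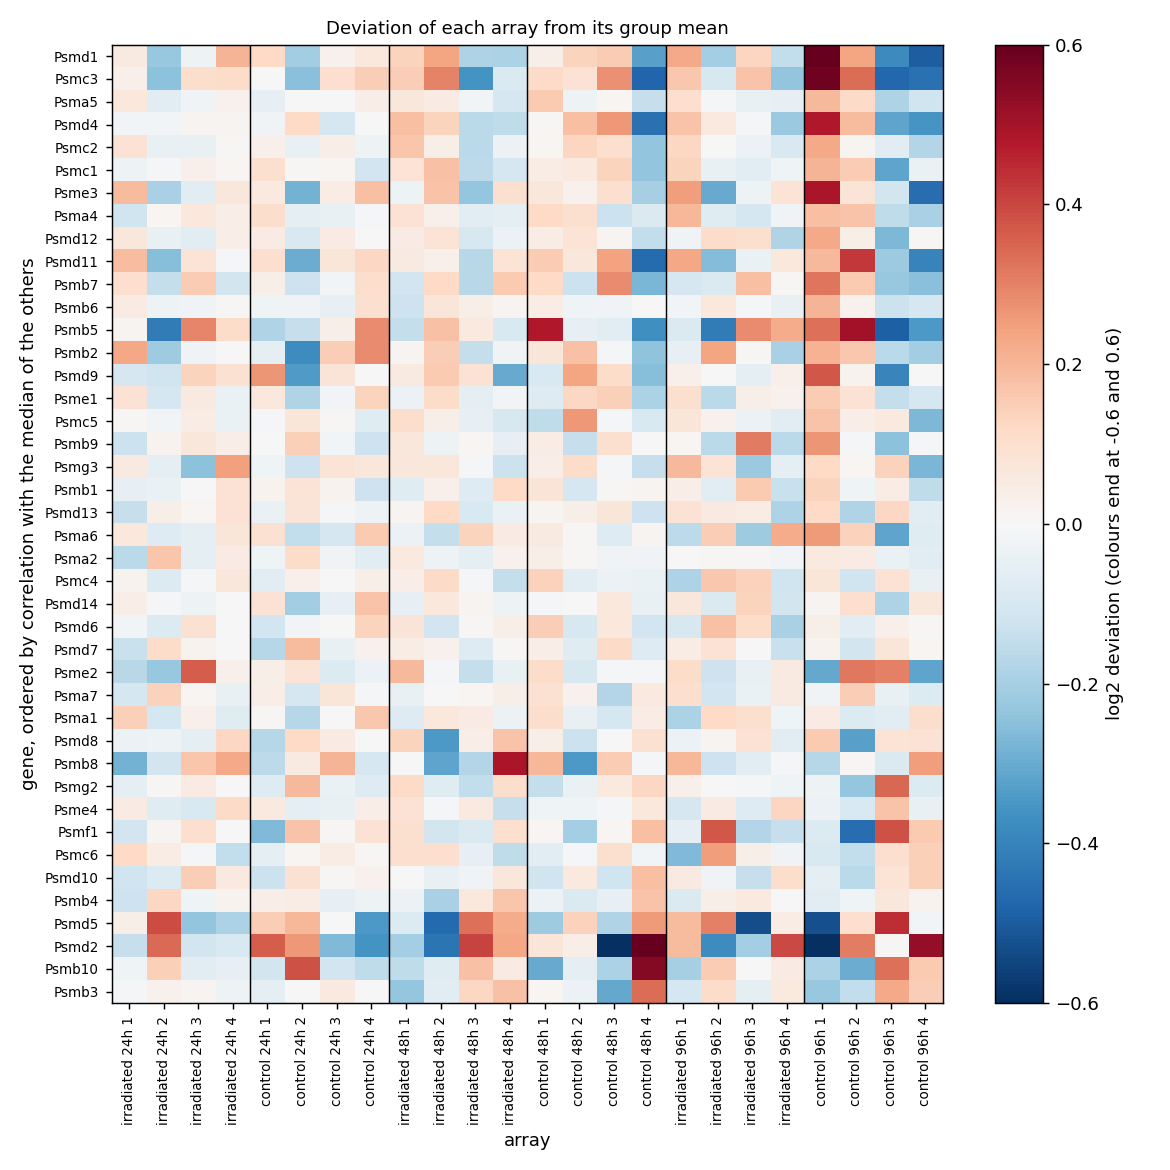
Deviation (log2) of each array from the mean of its own group for 42 proteasome genes, ordered from top to bottom by their correlation with the median deviation of the other genes. Columns are arrays, irradiated left of control at each time. Psmd1 and Psmc3 at the top and Psmb10 and Psmb3 at the bottom are often of opposite sign on the same array.

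Within groups, the members did not vary as a single unit. The median correlation of deviations from the group mean over the 24 arrays was 0.032 for pairs among the 42 genes, against 0.003 for pairs among all genes tested. It was 0.16 among core subunits, 0.15 among regulatory subunits and 0.11 between core and regulatory subunits. In the plot of deviations the genes are sorted by their correlation with the median of the other members, so its ends differ by construction. No such range of correlations is given for other genes. Psmd1, Psmc3 and Psma5 correlated with the median of the other members at 0.87, 0.86 and 0.85, while Psmb3, Psmb10 and Psmd2 did so at -0.74, -0.69 and -0.65. Core and regulatory genes thus stood at both ends. Of the immunoproteasome subunits, Psmb10 stood at the negative end, while Psmb9 correlated at 0.41 and Psmb8 at -0.13. The points share arrays and their normalization, and these correlations are descriptions.

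Probes of the same gene also diverged. Of 20 further probes for the 16 genes with several detected probes, 5 correlated with the brightest probe above 0.5 in their deviations, 7 below 0, and the median was 0.11. The probe pair of Psmd2 correlated at 0.94, and the first pair of Psmb7 at -0.78. The deviation of a member on 1 array can thus belong to the probe as much as to the gene, and effects of genes with a single probe have no such check. Among these are Psmc6, Psmg3, Psmb6 and Psma5, while Psmg2 was the called gene for which both detected probes fell at 24 h.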

How the data were processed

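RNA of 24 organoid samples was measured on Illumina BeadChips. The authors deposited intensity values on a linear scale, with a signal for each probe and array, which from the values were neither normalized nor background-subtracted, and, per the file headers, a detection p-value beside each. The authors also deposited processed intensity values, whose order within an array is that of the first set. For the authors' steps, software was not given in the sources used here.

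Signals were background-corrected from the detection p-values (offset 16), quantile normalized and put on the log2 scale with the neqc function (limma package 3.58.1, R 4.3.3, data.table package 1.17.8). A probe was used where its detection p was under 0.05 in 4 or more arrays, as for 15056 of 25697, and a gene took the value of its brightest probe. One mean per group was fitted to 10798 genes on 24 arrays with limma (18 residual degrees of freedom, median SE 0.17), two-sided, with Benjamini-Hochberg adjustment per contrast over all genes. The number of arrays limits the precision. The script was tested on simulated data, where 30 of 100 changes of 0.5 log2 and 83 of 100 changes of 1 log2 at 24 h were called. Of 116 calls there, 3 were false. Fewer genes changed there than were called on the real arrays at 24 h, so these shares need not hold for them. Alternatives were other backgrounds, scalings, filters, variance models, probe choices and thresholds, a replicate block, leaving out each array and, added after seeing the data, leaving out 5 arrays or a covariate for detected probes.

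The members and lists were chosen with earlier results of these data known. Named are called members, a fixed set (Psmb5 to Psmb10, Psme1 to Psme4, Psmf1, Psmc3ip), members called for a difference between times, and up to 3 called genes per list and time. Other members, such as Psmd8, Psmd11 and the covariation examples, were named after their values were seen. Marker and partner lists were written from general knowledge.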

Additional observations from a re-analysis of the deposited data

Results flagged for a closer look

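In 96 groups of 4 arrays from 16 members, 3 held a sample far from the other 3, where chance gives about 1 in 20 groups. Psmb10 read 10.75 in control 24 h replicate 2, with 10.22 to 10.26 in the other controls. Psmg2 read 8.53 in the same sample, with 8.26 to 8.30 in the others, and without that sample its 24 h difference was -0.38 and still called (adjusted p = 0.0194 in limma). Psmc3ip read 7.15 in control 48 h replicate 4, with 7.38 to 7.42 in the others.

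The irradiation effect differed between times by the contrast of effects for 4 genes. From 24 to 96 h the change was 0.77 for Psmg2, 0.74 for Psmg3, 0.49 for Psmb6 and 0.46 for Psma5, and from 48 to 96 h it was 0.59 for Psmg2.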

How the results depend on the processing

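Of 43 members, 3 were lower at 24 h in the reported fit. With median scaling 29 were lower at 24 h and 1 at 96 h, 0 and 2 changed effect from 48 to 96 h and from 24 to 96 h, and the median effects were -0.54, -0.30 and -0.13 at 24, 48 and 96 h. Over all genes tested, 45.6% were lower at 24 h under that scaling. That scaling reversed the 24 h effects of Psmb9 (-0.47), Psme3 (-0.53) and Irf1 (-0.032). With cyclic loess 1 member was higher at 24 h, where 1480 of 10798 genes were, and the median of the members was 0.026. At 96 h 1 member was higher with no background correction, with the deposited processed values, with no detection filter, with a trended robust variance and with detected probes as a covariate. In these settings 177 to 192 of all genes tested were higher at 96 h. The number lower at 24 h was 5 with the trended robust variance, 6 with array weights (1 at 48 h), 6 with the mean of a gene's probes, 1 at an adjusted p under 0.01 and 1 with the covariate. Over all genes tested, the share lower at 24 h was 12.9% with that variance and 17.0% with array weights. It was 14.0% with the mean of a gene's probes and 7.3% with the covariate. With the mean of a gene's probes the medians were -0.12 at 24 h and 0.019 at 48 h, and 7 members changed effect from 24 to 96 h. From 48 to 96 h 0 members changed effect at an adjusted p under 0.01, with only the arrays of the times compared and without the 5 arrays with the fewest detected probes, which also gave a 24 h median of -0.11 and 2 changes from 24 to 96 h. Leaving out 1 array gave 0 to 1 higher and 0 to 1 lower at 96 h (higher without control replicate 1 or 3, lower without control or irradiated replicate 2), 0 to 1 changed from 48 to 96 h, 2 to 4 lower at 24 h and medians at 96 h from 0.11 to 0.18. Irradiated and control arrays of the same replicate number correlated in their deviations from -0.41 to 0.46. Some arrays correlated best with their own number and others did not. These correlations cannot decide whether the numbers pair the samples. With the replicate block 3 members were lower at 24 h, 0 at 48 h and 0 at 96 h, and 5 changed effect from 24 to 96 h. Over 17 alternatives other than single arrays left out, the adjusted p in limma at 24 h ranged from 0.000866 to 0.199 for Psmc6, from 0.000365 to 0.114 for Psmg3 and up to 0.0378 for Psmg2. The cause of these differences was not tested.

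With 4 arrays a group, the median SE of an effect was 0.17. Psmb8 and Psmd5 lay near background, where signal limits any comparison.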
